A study of Homo sapiens with 9 samples.

Results

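The cholesterol and fatty acid synthesis genes described here are 32 genes chosen by name out of 36601 in the count tables, and all 32 were present in both tables. They comprise 20 enzymes of sterol synthesis, 5 genes that regulate or sense sterols and 7 enzymes of fatty acid synthesis. The rule is a list of gene symbols with no threshold on a value, and it was drawn up with earlier results of these data known. Their UMIs (unique molecular identifiers, which count captured transcripts) were summed in human extra-embryoids (hEEs), aggregates grown from stem cells that form an inner embryonic compartment and an outer hypoblast-like layer. The hEEs came from the wild-type human embryonic stem cell line ESI017 and were measured on D4 and D6 with a droplet assay that reads the 3′ end of each captured transcript in single cells. None of the study's signal modulation treatments is described for them. The starting cells had been grown on mouse feeder cells in expanded-potential medium with a WNT inhibitor and a ROCK inhibitor. They were aggregated in a medium partly conditioned by such feeders, which held a ROCK inhibitor at the start, and moved to mIVC2 medium on D3. Both days followed this change of medium, but D6 by a longer time, which cannot be told apart from the day. Aggregates with a visible inner and outer compartment were picked, and wells of the same day were pooled into 1 library a day. They came from separate cultures of ESI017, of different clones and passage numbers. There are no replicates, so no test between days or between cell classes could be run. Brackets hold 95% intervals of counting error, which do not include variation between cells or between cultures.

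Cholesterol is built from acetyl-CoA. The mevalonate arm joins acetyl units and turns them into isoprenoids, a middle step joins isoprenoids to squalene and closes it to lanosterol, and a last series of enzymes trims lanosterol to cholesterol. SREBP transcription factors, encoded by SREBF1 and SREBF2, switch on many of these enzymes when membranes hold little sterol. SCAP carries the SREBPs to the Golgi for activation, and INSIG1 holds SCAP back when sterol is plentiful. Fatty acid synthesis draws on the same acetyl-CoA and is known to be driven by the same factors. The study itself uses FASN and MVD among genes of early amnion. In its own amnion cluster it reports higher expression of late than of early amnion genes. That cluster was not used here.

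Cells with 3430 to 27500 UMIs and at most 10% mitochondrial UMIs were kept, which left 9151 of 10943 cells at D4 and 10097 of 11483 at D6. Cells with at least 5 UMIs of POU5F1, at least 1 of SOX2 and at most 2 of FN1 formed the embryonic gate, with 3716 cells at D4 and 5054 at D6. Cells with at least 3 UMIs of FN1, none of SOX2 and at most 5 of POU5F1 formed the hypoblast gate, with 4061 and 3567 cells. Cells of the embryonic gate with at least 2 UMIs of TFAP2A, a gene of amnion and surface ectoderm, are called TFAP2A cells and numbered 81 at D4 and 350 at D6. Median depth was 15158 and 14226 UMIs per cell in the embryonic gate, 15444 and 13980 in TFAP2A cells, and 11012 and 10902 in the hypoblast gate. The median mitochondrial share in the gates and in TFAP2A cells was 3.75 to 4.24% at D4 and 1.52 to 2.10% at D6. A total of 40 cell barcodes occurred in both libraries.

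The gates carried the markers of their names. The summed level of 7 embryonic markers was 2498 and 2459 counts per 1000000 UMIs of the class (CPM) in the embryonic gate against 977 and 940 CPM in the hypoblast gate, at D4 and D6. Of these 7 markers, 1 was higher in the hypoblast gate on each day, with log2 ratios over the embryonic gate of 0.30 and 0.43. The 8 hypoblast markers summed to 2962 and 14423 CPM in the hypoblast gate against 101 and 166 CPM in the embryonic gate. The hypoblast gate also held more of the 4 mesoderm markers, with sums of 33.3 and 103.6 CPM against 3.55 and 6.94 CPM in the embryonic gate. TFAP2A cells were less distinct. They had to pass the embryonic gate, so amnion-like cells without SOX2 or with little POU5F1 could not be among them. In TFAP2A cells the 7 embryonic markers summed to 2530 and 2581 CPM, beside 2497 and 2450 CPM in the other cells of that gate. The 7 amnion markers of TFAP2A cells summed to 26.1 CPM at D4 and 86.5 CPM at D6. This was above the 10.9 and 22.8 CPM of the embryonic gate but below the 89.8 and 116.8 CPM of the hypoblast gate, where MSX2 made up most of the sum. ISL1 and GABRP had no UMI in TFAP2A cells at D4, which allows up to 2.24 CPM (3 UMIs), and stood at 5.06 and 0.974 CPM at D6, and TFAP2B had none on either day (up to 0.584 CPM at D6). TFAP2A cells are therefore named by their gene and not as amnion. The 7 trophoblast markers summed to 0.0346 to 0.105 CPM in the gates and had no UMI in TFAP2A cells, which allows up to 2.24 CPM at D4 and 0.584 CPM at D6 (3 UMIs each).

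Promoters of 28 of the 32 genes were found in RefSeq (build GRCh38.p14, 250 bases before to 50 after each start, 39 promoters). The 4 without an entry were ACAT2, FDFT1, SQLE and FASN. Only exact letters within these windows were searched, so other forms of a site, and sites farther away, were not looked for. The sterol regulatory element TCACNCCAC, searched on both strands, occurred in the promoter of SREBF2 alone, and in 1.13% of all 35116 promoters. This sequence shows where it lies, in capitals, 133 bases before the start of SREBF2 (chr22:41832855-41833104, plus strand).

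SREBF2: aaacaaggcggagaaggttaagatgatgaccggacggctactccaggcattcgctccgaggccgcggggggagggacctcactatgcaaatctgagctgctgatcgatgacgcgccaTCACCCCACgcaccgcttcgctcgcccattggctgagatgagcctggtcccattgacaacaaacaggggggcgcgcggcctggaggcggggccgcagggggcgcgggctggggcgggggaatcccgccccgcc

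The letters CCAAT, the core of NF-Y sites, occurred on either strand in 64.1% of the 39 promoters and in 34.6% of all promoters. GGGCGG, the core of SP1 sites, occurred in 84.6% of the 39, in 45.0% of all promoters and in 65.0% of the promoters of genes compared between days in the embryonic gate. The E-box CACGTG occurred in 12.8% of the 39 (5 promoters of 4 genes), in 7.26% of all promoters and in 9.13% of the promoters of those compared genes. The promoters of HMGCS1 and MSMO1 are shown because these genes moved in opposite directions in the gates (they were chosen after their values were seen), with CCAAT or its complement ATTGG in capitals. HMGCS1 (chr5:43313413-43313662, minus strand) held 2 such matches and MSMO1 (chr4:165327419-165327668, plus strand) held 4. For HMGCS1, the promoter of its farthest upstream start is given. The promoter of its other start held no such match.

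HMGCS1: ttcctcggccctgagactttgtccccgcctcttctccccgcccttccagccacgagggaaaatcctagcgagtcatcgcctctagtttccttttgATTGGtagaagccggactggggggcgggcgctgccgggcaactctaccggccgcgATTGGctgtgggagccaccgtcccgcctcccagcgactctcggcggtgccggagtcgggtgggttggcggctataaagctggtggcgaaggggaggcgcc

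MSMO1: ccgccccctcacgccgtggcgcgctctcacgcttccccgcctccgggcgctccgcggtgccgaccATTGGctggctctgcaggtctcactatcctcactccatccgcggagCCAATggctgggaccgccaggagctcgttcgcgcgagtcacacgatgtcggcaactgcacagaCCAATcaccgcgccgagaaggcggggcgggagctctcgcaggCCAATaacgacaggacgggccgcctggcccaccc

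The 20 sterol enzymes summed to 2622 [2608, 2635] CPM in the embryonic gate at D4 and to 2361 [2350, 2372] CPM at D6. In the hypoblast gate the order of the days was the other way round, with 2236 [2222, 2249] CPM at D4 and 2602 [2587, 2618] CPM at D6. TFAP2A cells had 2612 [2527, 2700] CPM at D4, within counting error of the embryonic gate, and 1872 [1835, 1910] CPM at D6, the lowest of the 6 values. The 7 fatty acid enzymes followed the same order in each class, with 775 and 740 CPM in the embryonic gate, 781 and 647 CPM in TFAP2A cells and 696 and 763 CPM in the hypoblast gate. The 5 regulators were far lower, at 118 and 122 CPM, 110 and 107 CPM, and 90.8 and 99.8 CPM. These are levels relative to all UMIs of a class, so a lower level cannot be told apart from a rise in other transcripts. As the 3′ end of a transcript is counted once, levels of different genes were compared without scaling for length.

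**Figure D1:**
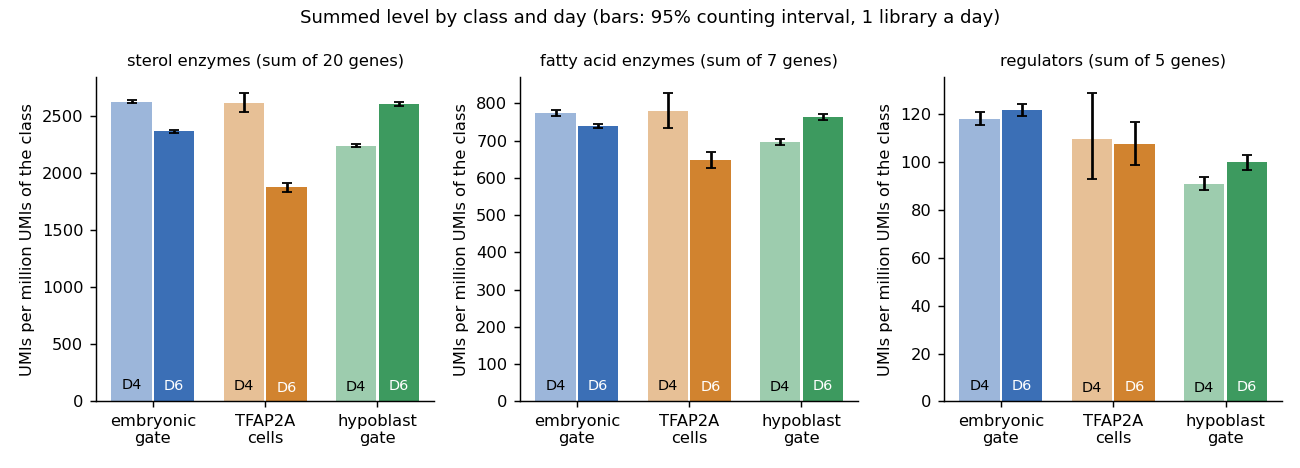
Summed levels, in CPM, of the 20 sterol enzymes, 7 fatty acid enzymes and 5 regulators in the embryonic gate, TFAP2A cells and hypoblast gate at D4 (pale) and D6 (full colour), with 95% counting intervals from 1 library a day. Sterol enzymes stood at 2622 and 2361 CPM in the embryonic gate, 2612 and 1872 CPM in TFAP2A cells, and 2236 and 2602 CPM in the hypoblast gate.

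In the embryonic gate the sterol sum was lower at D6 than at D4, by a change of -9.93% or a log2 ratio of -0.15 [-0.16, -0.14]. The median over all 16502 compared genes (those with at least 50 UMIs in both classes together) was 0.08, and 15 of the 20 enzymes were below 0. None of the 32 genes was past 1.5-fold, where 8.56% of compared genes were higher and 2.59% lower by that much, so the difference was small in each gene. The mevalonate arm (8 genes) had the larger part of it, with 1188 CPM at D4 and 1002 CPM at D6 and a log2 ratio of -0.25 [-0.26, -0.23]. The ratio was -0.04 [-0.06, -0.02] over the 3 enzymes from squalene to lanosterol, and -0.10 [-0.12, -0.09] over the 9 enzymes after lanosterol. This division of the pathway was made after the values had been seen.

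ACAT2, which joins acetyl-CoA units at the head of the pathway, was the most abundant sterol enzyme at D4 with 345 [340, 350] CPM and stood at 262 [258, 266] CPM at D6 (log2 ratio -0.40 [-0.43, -0.37]). It accounted for 83.4 CPM of the 260 CPM by which the sterol sum dropped, and without it the ratio of the sum was -0.12. FDPS, which makes farnesyl diphosphate and has processed pseudogenes that can take part of its reads, went from 345 to 294 CPM (-0.23 [-0.26, -0.20]). MVD, which makes the isoprenoid unit from mevalonate diphosphate, went from 39.2 to 30.4 CPM (-0.37 [-0.45, -0.28]). Among late enzymes, NSDHL, a sterol dehydrogenase, had 27.3 and 20.3 CPM and a ratio of -0.42 [-0.52, -0.32]. TM7SF2, a sterol reductase, had 95.2 and 76.3 CPM (-0.32 [-0.37, -0.27]), and EBP, a sterol isomerase, had 132 and 106 CPM (-0.31 [-0.36, -0.27]). Not every enzyme was lower at D6. PMVK, a mevalonate pathway kinase, had 58.2 and 64.6 CPM (0.15 [0.09, 0.22]) and HSD17B7 had 33.3 and 37.1 CPM (0.15 [0.07, 0.24]), the latter uncertain because a near-identical copy of the gene can share its reads.

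In the hypoblast gate the sterol sum was 16.4% higher at D6 than at D4, with a log2 ratio of 0.22 [0.21, 0.23] where the median of 15179 compared genes was 0.00. It lay between 0.15 and 0.26 in all 10 alternatives of scaling, weighting, gates, filters, depth and cell cycle. Of the 20 enzymes 18 were above 0, and 1 gene, MSMO1, was past 1.5-fold (in 9 of 10 alternatives), where 9.46% of compared genes were higher and 7.83% lower by that much. A single call among 32 genes is below that share, so the pattern was one of many small differences. The enzymes after lanosterol had the highest ratio, 0.30 [0.28, 0.32], from 891 to 1095 CPM. The ratio was 0.21 [0.18, 0.24] from squalene to lanosterol and 0.15 [0.13, 0.17] in the mevalonate arm.

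MSMO1, which takes methyl groups off the sterol ring, stood at 165 [162, 169] CPM at D4 and at 260 [255, 265] CPM at D6 in the hypoblast gate, a log2 ratio of 0.65 [0.61, 0.69]. In the embryonic gate it had 173 and 166 CPM, a ratio of -0.06 [-0.10, -0.03]. CYP51A1, the lanosterol demethylase, acts earlier in the pathway than MSMO1. It had 135 and 193 CPM in the hypoblast gate (0.52 [0.47, 0.56]) and 197 and 202 CPM in the embryonic gate (0.04 [0.00, 0.07]). HMGCS1, which makes HMG-CoA, was the gene of the mevalonate arm that differed most between gates. It had 99.6 [96.8, 102.5] CPM at D4 and 134 [130, 137] CPM at D6 in the hypoblast gate (0.42 [0.37, 0.48]), against 185 and 155 CPM in the embryonic gate (-0.26 [-0.30, -0.22]). DHCR7, the reductase of the last step, had 62.7 and 81.2 CPM in the hypoblast gate (0.37 [0.30, 0.44]). ACAT2 there had 319 and 355 CPM (0.15 [0.12, 0.19]) and MVD 35.1 and 39.1 CPM (0.16 [0.06, 0.26]), both above 0, unlike in the embryonic gate. The sterol enzymes that were lower at D6 in the hypoblast gate were TM7SF2 (153 and 143 CPM, -0.10) and PMVK (43.2 and 39.5 CPM, -0.13). Both gates come from the same 2 libraries, and the difference between their day ratios was not tested.

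**Figure D2:**
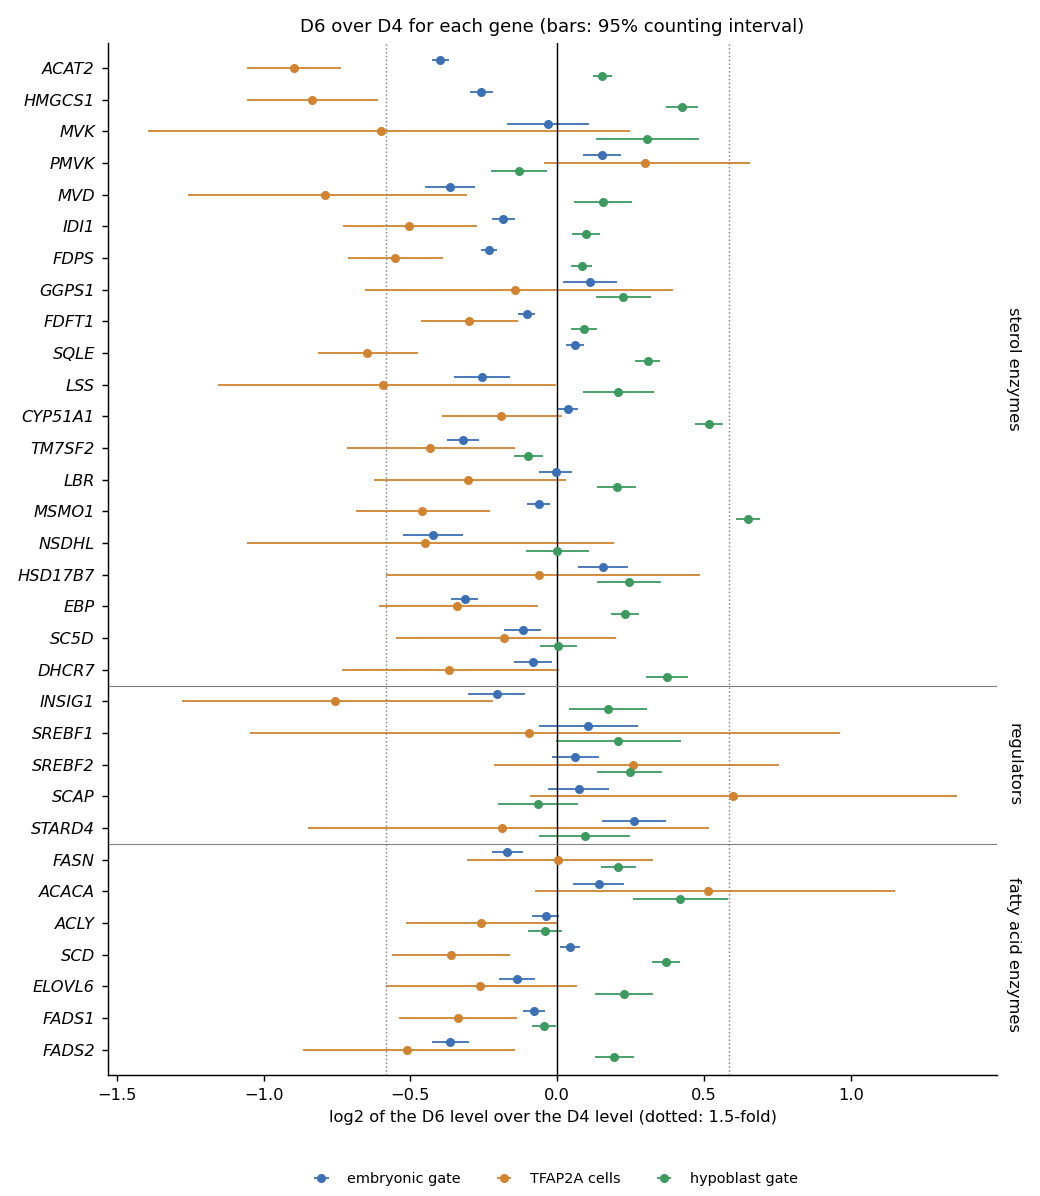
Log2 ratio of the D6 level over the D4 level for each of the 32 genes, in pathway order from top to bottom, with 95% counting intervals and dotted lines at 1.5-fold. For most sterol enzymes the embryonic gate (blue) lies left of 0 and the hypoblast gate (green) right of it, as for HMGCS1 at -0.26 and 0.42, while TFAP2A cells (orange) lie farther left with wide intervals.

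Cell cycle and stress genes also differed between days, and their part in the sterol differences was not tested. In the hypoblast gate all 10 proliferation genes were lower at D6, their sum going from 1645 to 1075 CPM. That sum went from 1861 to 1727 CPM in the embryonic gate and from 1783 to 1845 CPM in TFAP2A cells. The share of hypoblast cells with a UMI of MKI67 or TOP2A was 71.9% at D4 and 51.2% at D6. In the embryonic gate that share was 94.8% and 93.8%. Among hypoblast cells with such a UMI the sterol ratio of D6 over D4 was 0.21, and among those without it was 0.22. In the embryonic gate the ratios were -0.14 with and -0.33 without such a UMI, the latter from 193 and 311 cells. These were alternatives chosen after seeing the data. The 11 dissociation stress genes summed to 607 and 716 CPM in the embryonic gate, 575 and 831 CPM in TFAP2A cells, and 626 and 524 CPM in the hypoblast gate. Their order between days was thus opposite to that of the sterol enzymes in every class.

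TFAP2A cells showed the largest difference between days. Their sterol sum was lower at D6, by a change of -28.3% or a log2 ratio of -0.48 [-0.54, -0.42], and 19 of 20 enzymes were below 0. Of the 32 genes 7 were lower by 1.5-fold or more, against 3.47% of 9503 compared genes. SCAP alone was higher by that much, against 8.78% of compared genes. At D4 these cells held 1340095 UMIs in all, so intervals are wide and 3 of the 8 calls were marginal: MVK (14.2 and 9.35 CPM, -0.60 [-1.39, 0.25]), LSS (27.6 and 18.3 CPM, -0.59 [-1.16, -0.00]) and SCAP (14.9 and 22.6 CPM, 0.60 [-0.09, 1.36]). Markers of other cell types also differed between days in TFAP2A cells. The 4 mesoderm markers summed to 1.49 [0.18, 5.39] CPM at D4, with no UMI of MIXL1 or TBXT, and to 18.9 [15.3, 23.0] CPM at D6, against 3.596 and 6.05 CPM in the other cells of the embryonic gate. HAND1 made up most of the D6 sum, with 53 UMIs. The 8 hypoblast markers summed to 85.1 CPM at D4, with no UMI of GATA6 or FOXA2, and to 173.7 CPM at D6, against 101.8 and 165.6 CPM in the other cells. Most of that D6 sum in TFAP2A cells was APOA1, which went from 10.4 to 108.5 CPM. SOX17 (14.2 and 9.54 CPM) and COL4A1 (55.2 and 36.6 CPM) were lower at D6. Of the 4 hypoblast markers with enough UMIs to be compared, 2 were higher and 2 lower at D6. The part of these markers in the sterol difference was not tested.

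The other 5 calls were ACAT2, HMGCS1, MVD, SQLE and INSIG1. ACAT2 and MVD were past 1.5-fold in all 9 alternatives, HMGCS1 in 8, and SQLE and INSIG1 in 7, with ratios nearest to 0 of -0.56 for SQLE and -0.37 for INSIG1. ACAT2 had 351 [320, 385] CPM at D4 and 189 [177, 201] CPM at D6 (-0.90 [-1.06, -0.74]). HMGCS1 had 184 and 103 CPM (-0.84 [-1.06, -0.61]), and MVD 41.8 and 24.2 CPM (-0.79 [-1.26, -0.31]). SQLE, squalene epoxidase, which commits squalene to sterols, had 299 and 191 CPM (-0.65 [-0.82, -0.48]), where the embryonic gate had 245 and 255 CPM. INSIG1, which is itself a known target of the SREBPs, had 33.6 and 19.9 CPM (-0.76 [-1.28, -0.22]). FDFT1, squalene synthase, had 296 and 240 CPM (-0.30 [-0.46, -0.13]) and was the most abundant sterol enzyme of these cells at D6. FASN, fatty acid synthase, did not share this, with 79.8 and 80.1 CPM and a ratio of 0.00 [-0.31, 0.32]. The difference between the ratios of MVD and FASN, whose intervals meet at their ends, was not tested.

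At D4, TFAP2A cells were close to the other cells of the embryonic gate. The sterol sum was 2612 against 2622 CPM, a log2 ratio of -0.01 [-0.05, 0.04]. Of the 32 genes, 2 were lower by 1.5-fold or more where 12.5% of 14391 compared genes were, and none was higher where 9.23% were. These were SCAP (14.9 against 22.5 CPM, -0.59 [-1.31, 0.04]) and ACACA, acetyl-CoA carboxylase (20.9 against 32.3 CPM, -0.63 [-1.22, -0.09]). ACACA was within 1.5-fold in several alternatives, and SCAP, at 20 UMIs in TFAP2A cells, changed sign when cells with 1 UMI of TFAP2A were counted as TFAP2A cells. SQLE was higher, with 299 against 243 CPM (0.30 [0.15, 0.44]), FASN had 79.8 against 96.9 CPM (-0.28 [-0.57, -0.00]), and MVD had 41.8 against 39.1 CPM (0.10 [-0.31, 0.48]).

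At D6 the same comparison gave a sterol sum of 1872 against 2397 CPM, a log2 ratio of -0.36 [-0.39, -0.33], and 18 of 20 enzymes were below 0. HMGCS1 was the single gene past 1.5-fold, with 103 against 159 CPM (-0.63 [-0.76, -0.50]), where 7.26% of 15281 compared genes were lower and 5.67% higher by that much. Each arm of the pathway was lower, with ratios of -0.42 [-0.46, -0.37] in the mevalonate arm, -0.34 [-0.40, -0.28] from squalene to lanosterol and -0.30 [-0.35, -0.25] after lanosterol. MSMO1 had 117 against 169 CPM (-0.54 [-0.66, -0.42]), ACAT2 189 against 267 CPM (-0.50 [-0.60, -0.41]), MVK, mevalonate kinase, 9.35 against 12.8 CPM (-0.46 [-0.91, -0.04]) and FDPS 220 against 299 CPM (-0.45 [-0.53, -0.36]). SCD, the desaturase that makes monounsaturated fatty acids, had 160 against 224 CPM (-0.48 [-0.59, -0.38]), and STARD4, a cholesterol carrier, 16.4 against 24.2 CPM (-0.57 [-0.90, -0.25]). MVD had 24.2 against 30.9 CPM (-0.35 [-0.63, -0.09]), whereas FASN had 80.1 against 86.2 CPM, a ratio of -0.11 [-0.25, 0.04] that counting error spans. PMVK went the other way, with 76.2 against 63.8 CPM (0.26 [0.10, 0.41]).

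The level followed the number of TFAP2A UMIs in a cell at D6. Cells of the embryonic gate with 0, 1, 2, 3, and 4 or more TFAP2A UMIs had sterol sums of 2414, 2167, 1943, 1873 and 1784 [1722, 1846] CPM, from 4362, 342, 161, 71 and 118 cells. The steps from 0 to 1 and from 1 to 2 exceeded counting error, and neighbouring steps above that did not. At D4 the sums were 2618, 2670, 2690, 2499 and 2433 CPM, from 3392, 243, 53, 19 and 9 cells. The intervals of all these D4 sums overlapped. Median depth at D6 was 13617 to 14349 UMIs over the steps. Along the D6 steps the stress genes summed to 704, 752, 794, 879 and 849 CPM, the proliferation genes to 1717, 1736, 1729, 1933 and 1937 CPM, and the amnion markers to 16.1, 44.6, 66.2, 87.1 and 112 CPM. Their part was not tested. When TFAP2A cells at D6 were divided by whether they held a UMI of an amnion marker, the 206 with one had a sterol sum of 1897 [1849, 1946] CPM and the 144 without had 1835 [1777, 1895] CPM, a difference within counting error.

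**Figure D3:**
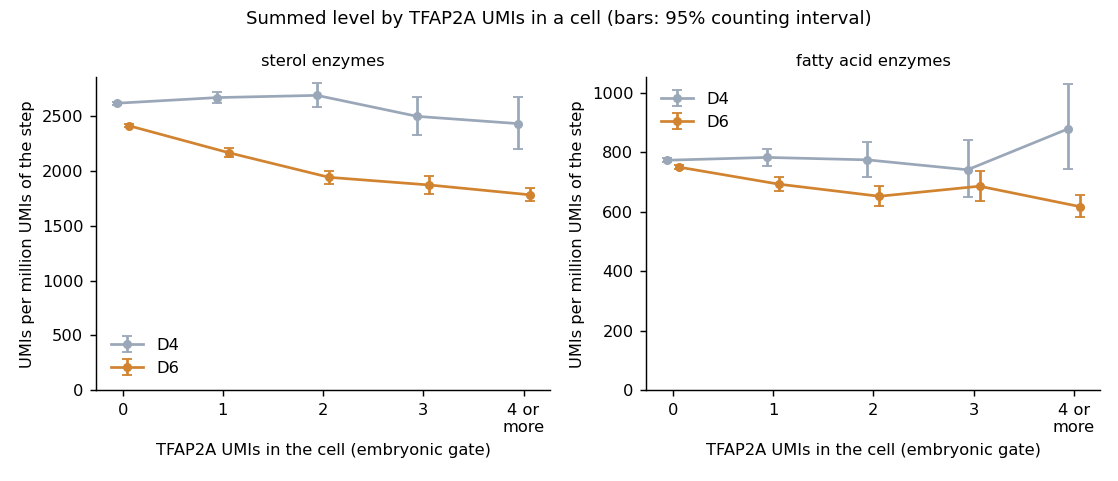
Summed level of the 20 sterol enzymes (left) and 7 fatty acid enzymes (right), in CPM of each step, in cells of the embryonic gate with 0, 1, 2, 3, and 4 or more TFAP2A UMIs, at D4 (grey) and D6 (orange), with 95% counting intervals. Sterol enzymes went from 2414 to 1784 CPM over the steps at D6 and lay between 2433 and 2690 CPM at D4.

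Compared between gates, the arms of the sterol pathway had different ratios, with the arms drawn after the values had been seen. At D4 the hypoblast gate had a lower sterol sum than the embryonic gate, with a log2 ratio of -0.23 [-0.24, -0.22]. At D6 the ratio was 0.14 [0.13, 0.15], but it turned to -0.02 when mitochondrial and ribosomal protein genes were left out of the total and was 0.29 with median-of-ratios scaling. The median of all compared genes was itself -0.04 at D4 and -0.14 at D6, and relative to it the sterol ratio was -0.19 and 0.28. The arm after lanosterol was at 891 CPM in the hypoblast gate and 858 CPM in the embryonic gate at D4 (0.05 [0.04, 0.07]), a ratio that turned to -0.021 with the reduced total. At D6 it was at 1095 against 799 CPM (0.45 [0.44, 0.47]), between 0.29 and 0.61 over 10 alternatives. The mevalonate arm was at 968 against 1188 CPM at D4 (-0.30 [-0.31, -0.28]) and at 1074 against 1002 CPM at D6 (0.10 [0.08, 0.12]), the latter turning to -0.062 with the reduced total. The sum of the enzymes from squalene to lanosterol was lower in the hypoblast gate at both days, with 377 against 575 CPM at D4 (-0.61 [-0.64, -0.59]) and 434 against 560 CPM at D6 (-0.37 [-0.39, -0.34]). At D6, 1 of these 3 enzymes was higher in the hypoblast gate.

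At D4, 5 of the 32 genes were lower by 1.5-fold or more in the hypoblast gate, where 22.3% of 15973 compared genes were. One gene, TM7SF2, was higher by that much, where 21.0% were. At D6, 6 were higher, where 21.1% of 16481 compared genes were, and 4 were lower, where 29.8% were. These shares were not above those of all genes, so with these settings the gene set did not stand out in how often it differed between gates. In the alternative of cells without a UMI of MKI67 or TOP2A, more of the 32 genes were lower at D4. There they were above the 17.9% of all compared genes that were lower. The 6 higher genes at D6 were TM7SF2, EBP, MSMO1, NSDHL and SC5D, all acting after lanosterol, and the fatty acid desaturase FADS2.

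TM7SF2 had 153 against 95.2 CPM at D4 (0.69 [0.64, 0.74]) and 143 against 76.3 CPM at D6 (0.91 [0.86, 0.96]) and was past 1.5-fold in all 10 alternatives that were compared on each day. LBR, which catalyses the same reduction and is also a protein of the nuclear envelope, had 77.0 against 75.6 CPM at D4 (0.03 [-0.04, 0.09]) and 88.6 against 75.3 CPM at D6 (0.23 [0.17, 0.29]). EBP had 173 against 106 CPM at D6 (0.71 [0.66, 0.75]), MSMO1 260 against 166 CPM (0.65 [0.61, 0.68]), NSDHL 31.5 against 20.3 CPM (0.63 [0.52, 0.74]) and SC5D, a sterol desaturase, 90.3 against 58.8 CPM (0.62 [0.56, 0.68]). At D4 these 4 ratios were 0.16, -0.07, 0.21 and 0.50. At D6, SC5D was past 1.5-fold in 9 of 10 alternatives and the other 3 in 8. CYP51A1 and HSD17B7, which also act after lanosterol, were below 0 on both days, with -0.55 and -0.07 for CYP51A1 and -0.22 and -0.14 for HSD17B7. FDFT1, the branch point enzyme that commits farnesyl units to sterols, was the main exception. It had 173 against 302 CPM at D4 (-0.80 [-0.84, -0.76]) and 184 against 281 CPM at D6 (-0.61 [-0.64, -0.57]), the largest single difference in CPM within the sterol sum at both days. It was past 1.5-fold in all 10 alternatives at D4 and in 6 of 10 at D6, where it reached -0.38. HMGCS1 had 99.6 against 185 CPM at D4 (-0.90 [-0.95, -0.85]) and 134 against 155 CPM at D6 (-0.21 [-0.26, -0.17]), so its gap between gates was smaller at D6. PMVK had 39.5 against 64.6 CPM at D6 (-0.71 [-0.79, -0.63]), while ACAT2 had 355 against 262 CPM (0.44 [0.41, 0.47]) and MVD 39.1 against 30.4 CPM (0.36 [0.27, 0.46]).

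**Figure D4:**
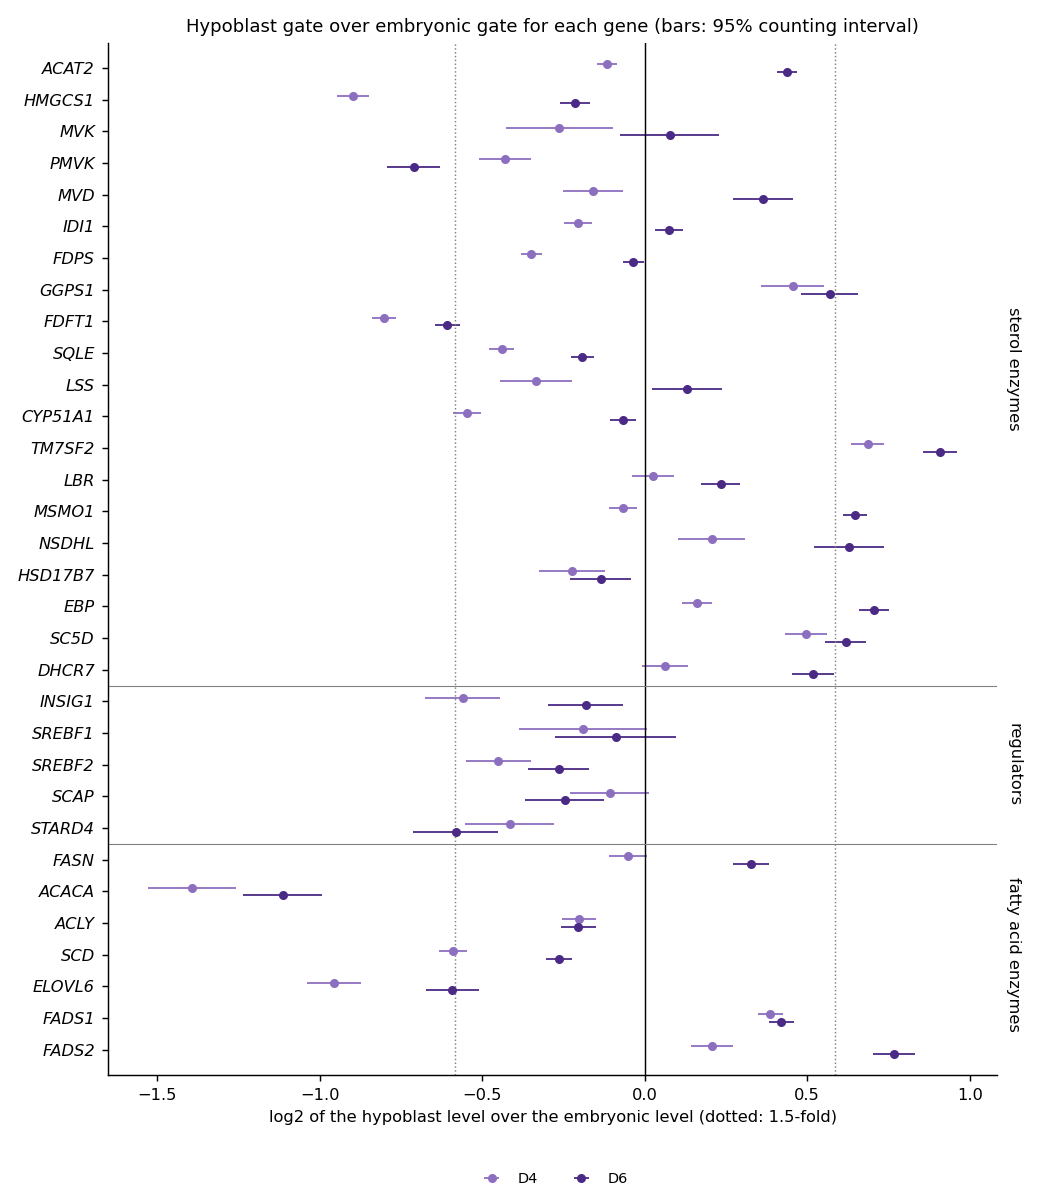
Log2 ratio of the hypoblast gate over the embryonic gate for each of the 32 genes at D4 (light) and D6 (dark), in pathway order, with 95% counting intervals and dotted lines at 1.5-fold. Of the 9 enzymes after lanosterol 6 lie to the right of 0 at D4 and 7 at D6, among them TM7SF2 (0.69 and 0.91) and EBP (0.16 and 0.71), with CYP51A1 (-0.55 and -0.07) and HSD17B7 (-0.22 and -0.14) to the left on both days. FDFT1 (-0.80 and -0.61), ACACA (-1.39 and -1.11) and ELOVL6 (-0.96 and -0.59) also lie to the left.

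The 5 regulators ranged from 8.70 CPM (SREBF1) to 38.2 CPM (SREBF2) in the embryonic gate at D4, where the enzymes MVK, NSDHL, GGPS1, LSS, ACACA and HSD17B7 also lay below SREBF2. SREBF2, the sterol-responsive SREBP gene, had 38.2 and 39.9 CPM in the embryonic gate, 33.6 and 40.1 CPM in TFAP2A cells, and 28.0 and 33.2 CPM in the hypoblast gate. Its ratio of D6 over D4 was 0.06 [-0.02, 0.14], 0.26 [-0.21, 0.76] and 0.25 [0.14, 0.36]. The intervals in the embryonic gate and in TFAP2A cells span 0. The part of SREBF2 in the sterol differences was not tested. SREBF1 had 7.63 to 9.37 CPM in all 6 classes and days, with every interval of its ratios spanning 0. All 5 regulators were lower in the hypoblast gate than in the embryonic gate on both days, with medians of -0.41 at D4 and -0.25 at D6, except that median-of-ratios scaling put SCAP at 0.01 at D4 and SREBF1 at 0.06 at D6, and that SREBF1 and SCAP were above 0 at D6 in cells without a UMI of MKI67 or TOP2A. INSIG1 had 29.0 and 25.1 CPM in the embryonic gate (-0.21 [-0.30, -0.11]) and 19.7 and 22.1 CPM in the hypoblast gate (0.17 [0.04, 0.30]), on the same side of 0 as the sterol sum in each. STARD4 was the regulator with the highest ratio in the embryonic gate, with 19.8 and 23.7 CPM (0.26 [0.15, 0.37]).

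Among fatty acid enzymes the most abundant were SCD and FADS1, a desaturase of polyunsaturated fatty acids. SCD had 213 and 220 CPM in the embryonic gate, 206 and 160 CPM in TFAP2A cells, and 142 and 183 CPM in the hypoblast gate, where its ratio of D6 over D4 was 0.37 [0.32, 0.42]. FADS1 had 176 and 167 CPM, 204 and 161 CPM, and 230 and 223 CPM, with the highest levels in the hypoblast gate. FASN had 96.5 and 85.8 CPM in the embryonic gate (-0.17 [-0.22, -0.12]) and 93.1 and 108 CPM in the hypoblast gate (0.21 [0.15, 0.27]), so the gates differed by 0.33 [0.27, 0.38] at D6 and by -0.05 [-0.11, 0.01] at D4. FADS2, the other desaturase, had 67.9 and 52.8 CPM in the embryonic gate and 78.5 and 89.8 CPM in the hypoblast gate, and was higher in the latter at D6 by 0.77 [0.70, 0.83]. ACACA, which makes malonyl-CoA for chain growth, was the gene that differed most between gates, with 12.2 against 32.03 CPM at D4 (-1.39 [-1.53, -1.26]) and 16.3 against 35.3 CPM at D6 (-1.11 [-1.24, -0.99]). ELOVL6, an elongase, had 34.6 against 67.0 CPM at D4 (-0.96 [-1.04, -0.87]) and 40.5 against 61.0 CPM at D6 (-0.59 [-0.67, -0.51]). ACLY, which makes cytosolic acetyl-CoA from citrate, had 103 to 125 CPM in all 6 classes and days. Thus ACACA, ELOVL6 and SCD were lower in the hypoblast gate than in the embryonic gate on both days, with SCD at -0.59 and -0.26, while FADS1 and FADS2 were higher. The ratio of ELOVL6 at D6 and that of SCD at D4 were each past 1.5-fold in 4 of 10 alternatives.

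The sums were spread widely over single cells. In the embryonic gate the median cell had 2578 CPM of sterol enzymes at D4, with quartiles of 1989 and 3219 CPM, and 2302 CPM at D6, with quartiles of 1727 and 2889 CPM. The median cell of the hypoblast gate had 2121 CPM at D4 and 2451 CPM at D6, and that of the TFAP2A cells 2478 and 1748 CPM. The shift of the median between days was smaller than the distance between quartiles in each class. The upper quartile of TFAP2A cells at D6, 2293 CPM, lay below the median of the embryonic gate on the same day.

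**Figure D5:**
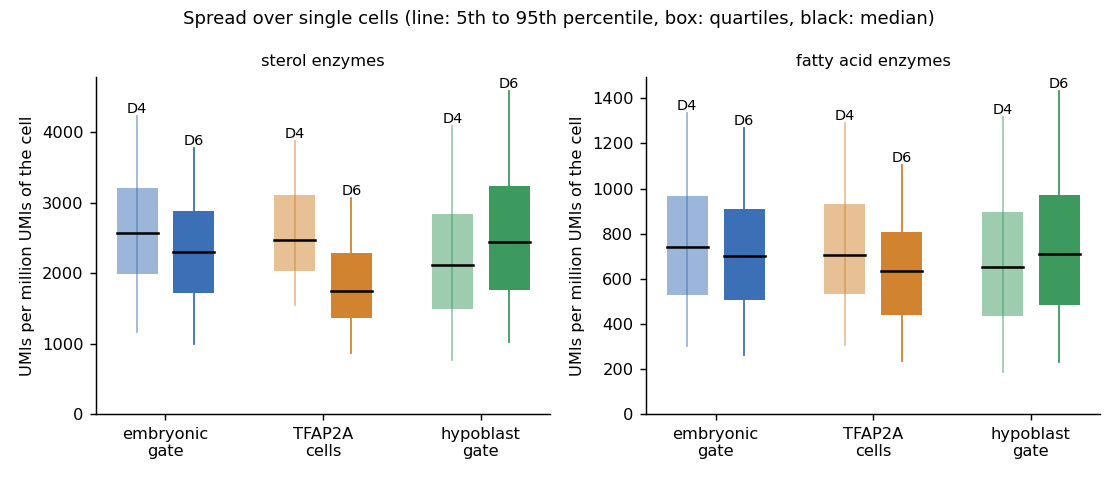
Spread over single cells of the summed level of sterol enzymes (left) and fatty acid enzymes (right), in CPM of each cell, in each class at D4 (pale) and D6 (full colour). Boxes span the quartiles, black lines mark medians and thin lines run from the 5th to the 95th percentile of cells. The median for sterol enzymes in TFAP2A cells was 2478 CPM at D4 and 1748 CPM at D6.

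Other genes of lipid metabolism, from lists fixed apart from the 32, were set beside them. Of 18 further sterol and fatty acid synthesis genes compared, 9 were below 0 in the embryonic gate at D6 over D4, and the sum of the list differed by -9.68%, with a median of -0.02. In TFAP2A cells 13 of 16 were below 0 and the sum differed by -20.2%, again in the direction of the sterol enzymes. In the hypoblast gate 10 of 18 were above 0 and the sum differed by -2.70%, so there the list did not follow them. Genes of mitochondrial fatty acid oxidation kept sums of 952 and 953 CPM in the embryonic gate, 935 and 954 CPM in TFAP2A cells, and 1061 and 1014 CPM in the hypoblast gate.

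Genes of cholesterol uptake, lysosomal release, esterification and export differed most between gates. Their sum was 970 and 1064 CPM in the hypoblast gate against 350 and 385 CPM in the embryonic gate, a log2 ratio of 1.47 on both days. Most of this was NPC2, which hands cholesterol out of the lysosome, with 761 and 838 CPM in the hypoblast gate against 140 and 160 CPM in the embryonic gate. LRP2, an endocytic receptor of lipoproteins and other ligands, had 4.91 and 20.1 CPM against 0.588 and 0.762 CPM, and SOAT1, which esterifies cholesterol, had 23.2 and 16.2 CPM against 3.77 and 5.71 CPM. The largest log2 ratio of the list at D6, 7.11, was that of a gene not named here. Of the list, 4 of 13 compared genes at D4 and 5 of 14 at D6 were higher by 1.5-fold or more in the hypoblast gate. That compares with 21.0% and 21.1% of all compared genes. Lower by that much were 1 at D4 and 3 at D6, beside 22.3% and 29.8% of all. Over the list the medians were 0.13 and 0.10, beside -0.04 and -0.14 over all compared genes, so the difference in the sum came from few genes.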

How the data were processed

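Per the labels and file headers, the authors aligned reads to hg38, called cells and counted UMIs per gene with Cell Ranger 6.0.1, and deposited 1 table of raw counts for each day without normalization. The submitters' processing notes also name Seurat 4.0.1 and R 4.0.3. The 7 bisulfite libraries were not analysed here. The D4 library held 151712246 UMIs and the D6 library 150320228 UMIs.

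UMIs were summed over the kept cells of a class and divided by all UMIs of that class, per 1000000. Their intervals are exact Poisson intervals. Log2 ratios have exact conditional binomial intervals. Both cover counting error only, and wells of a day were pooled, so no test was run. Genes with at least 50 UMIs in both classes together were compared, without the 4 gate genes, and called past 1.5-fold. The intervals were tried on simulated Poisson counts, the model they assume, so this trial cannot show how they fare with variation between cells. No doublet caller was run. The gates exclude each other by their limits on SOX2 and FN1, so the absence of cells in both says nothing about doublets. In 1 alternative only cells with at most 20000 UMIs were kept. The submitters' cell classes were not used here.

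The members and lists were chosen with earlier results of these data known. Values are mainly those of the 6 compared genes with the largest ratio in each comparison, the most abundant gene of each sum, FASN and MVD, with others by range or count. Not every one of these genes is given in each comparison. Further genes (among them HMGCS1, MSMO1 and FDFT1 where outside that rule) were named after their values were seen. Alternatives changed the scaling (median of ratios, or a total without mitochondrial and ribosomal protein genes), the weighting of cells, the gates, the cell filter, the depth, the TFAP2A threshold, the minimum count (10, 200 or 1 UMI in each class) and the fold (2). Python 3.11.15, numpy 2.4.6, pandas 2.3.3 and scipy 1.17.1 were used. Promoters came from RefSeq (GRCh38.p14), the same build as hg38.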

Additional observations from a re-analysis of the deposited data

Results flagged for a closer look

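The ratios of D6 over D4 had opposite signs in the gates and differed by more than 1.5-fold for HMGCS1 and MSMO1. Opposite signs alone were common. Of the 32 genes, 18 were lower at D6 in the embryonic gate and higher in the hypoblast gate, among them 14 of the 20 sterol enzymes. The share of all compared genes that met the same rule is not given here, so the 2 genes are a description only. The log2 ratio of the hypoblast gate was higher than that of the embryonic gate by 0.68 for HMGCS1, from -0.26 in the embryonic gate to 0.42 in the hypoblast gate. For MSMO1 it was higher by 0.71, from -0.06 to 0.65. With 1 library a day the difference was not tested.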

How the results depend on the processing

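No paired analysis was possible because there was 1 library a day and no test. With 1 library a day no replicate could be left out, and depth limits TFAP2A cells at D4, where 81 cells held all UMIs. Alternatives that left fewer than 30 cells in a class gave no value: TFAP2A cells without a UMI of MKI67 or TOP2A (3 and 18 cells) and cells with 3 or more TFAP2A UMIs at D4 (28). The cause of a moved value was not tested.

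The sterol sum of D6 over D4 kept its sign in every alternative, as did hypoblast over embryonic gate at D4 and TFAP2A over other embryonic cells at D6. Log2 ratios that left their counting interval were as follows. D6 over D4 in the embryonic gate was -0.14 without mitochondrial and ribosomal protein genes in the total, -0.18 as the mean of the cells' own levels, -0.18 with at most 20000 UMIs per cell, -0.22 in cells of 8000 to 16000 UMIs and -0.33 in cells without a UMI of MKI67 or TOP2A. In TFAP2A cells it was -0.54 in cells of 8000 to 16000 UMIs. In the hypoblast gate it was 0.26 with median-of-ratios scaling, 0.15 without mitochondrial and ribosomal protein genes and 0.21 with stricter gates. Hypoblast over embryonic gate at D4 was, in the order of median-of-ratios scaling, the reduced total, the cells' own levels, cells of 8000 to 16000 UMIs and cells without a UMI of MKI67 or TOP2A, -0.11, -0.31, -0.24, -0.24 and -0.29. At D6 it was 0.29 with median-of-ratios scaling, 0.16 with at most 20000 UMIs, 0.19 in cells of 8000 to 16000 UMIs, 0.12 with and 0.27 without a UMI of MKI67 or TOP2A, and it reversed to -0.021 with the reduced total, as did the fatty acid enzymes (-0.12) and all 32 genes (-0.057). TFAP2A over other embryonic cells was -0.056 at D4 with stricter gates, and at D6 -0.32 with no cell filter, -0.39 at 3 or more TFAP2A UMIs and -0.26 at 1 or more against 0. SCAP at D4 reversed to 0.21 at 1 or more against 0.

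Counts of the 32 genes past 1.5-fold that moved by over 1.5 times were as follows. At 2-fold, no gene was left except 1 lower gene (ACACA) in hypoblast over embryonic gate on each day, so 0 remained for the other counts that had been above 0. Of all compared genes, 13.1% at D4 and 18.4% at D6 were lower by 2-fold there. D6 over D4 in TFAP2A cells had 0 higher genes with no cell filter, 0 in cells with a UMI of MKI67 or TOP2A, 0 at a minimum of 200 UMIs and 3 in cells of 8000 to 16000 UMIs, and 3 lower genes at a minimum of 200 UMIs. In the same order, 7.53, 8.56, 2.58 and 10.9% of all compared genes were higher, and 1.51% were lower. D6 over D4 had 0 higher genes in the hypoblast gate with the reduced total and 3 lower genes in the embryonic gate in cells without a UMI of MKI67 or TOP2A. Of all compared genes, 8.07% were higher in the former and 4.06% lower in the latter. Hypoblast over embryonic gate at D4 had 2 higher genes with median-of-ratios scaling, and 3 higher and 9 lower in cells without a UMI of MKI67 or TOP2A. Of all compared genes, 24.6% were higher with that scaling. In cells without such a UMI, 26.2% were higher and 17.9% lower, so the 9 lower genes were above the share of all genes. At D6 it had 2 higher genes with the reduced total, and 1 lower with median-of-ratios scaling, 2 with at most 20000 UMIs and 2 in cells without a UMI of MKI67 or TOP2A. In the same order, 17.4% of all compared genes were higher, and 24.7, 29.2 and 20.6% were lower. TFAP2A over other embryonic cells at D4 had 1 lower gene with the reduced total, the cells' own levels, stricter gates, a UMI of MKI67 or TOP2A, or against cells with no TFAP2A UMI, and 0 with no cell filter or at 1 or more TFAP2A UMIs against 0. Of all compared genes, 12.3 to 13.6% were lower in the former settings, and 11.2 and 5.13% in the latter. At D6 it had 2 lower genes with the cells' own levels, at most 20000 UMIs, 8000 to 16000 UMIs, 3 or more TFAP2A UMIs, or against cells with no TFAP2A UMI, and 0 with no cell filter or at 1 or more TFAP2A UMIs against 0. There the shares of all compared genes were 7.40 to 10.1% in the former settings, and 6.72 and 5.04% in the latter. Of the other values, 2155 stayed within counting error and 558 moved.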
